A study of Arabidopsis thaliana with 21 samples.

Results

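The genes described here encode WRKY, bZIP and NAC transcription factors, measured in whole roots of Arabidopsis thaliana on a C-9 aircraft flying parabolas. Members were the genes whose RefSeq symbol starts with WRKY, MYB, NAC, anac or BZIP followed by digits, on a probe set paired with exactly 1 gene, and WRKY22 was left out. The rule found 24 genes among 17481 probe sets with a gene name: 6 WRKY, 17 bZIP and 1 NAC gene, each on 1 probe set. RefSeq lists 297 genes under such symbols, 66 WRKY, 120 MYB, 81 NAC and 30 bZIP, so most genes so named were not analysed here, except among bZIP. Family genes under other symbols, such as the TGA factors of the bZIP family, fall outside the rule and these counts. No MYB gene met the rule, and MYB factors are not described further.

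The plants were wild-type seedlings of the Wassilewskija (WS) cultivar, 12 days old and grown in 24 h light, and all groups shared this background and the fixative RNAlater. Roots came from Kennedy Space Center Fixation Tubes (KFTs), sealed devices in which a crew member releases the fixative onto the seedlings. The 21 arrays form 7 groups of 3, in flight order: Level Flight (1 min before the first parabola), Parabola 1 Start (pitching up into increased gravity), Parabola 1 Midpoint KFT A and KFT B (the passage from increased gravity to microgravity, each tube operated by another crew member), Parabola 1 End, Parabola 3 End and Parabola 10 End. Per the labels' protocols, the 3 arrays of a condition hold root pools of a single tube.

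Each condition but the midpoint therefore had 1 tube, and tube and flight stage cannot be told apart there. The p-values weigh differences against the scatter of root pools within tubes, and "rose" and "fell" below stand for differences between tubes. Values are on the log2 scale as deposited; RMA, named in the submitters' processing notes, brings arrays to nearly the same distribution, and column medians lay between 2.92 and 3.04. The number of arrays limits the precision. In bulk roots, fewer cells of a type and less RNA per cell cannot be told apart.

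WRKY factors carry a conserved WRKYGQK motif beside a zinc finger and bind W-box elements, and plants use them widely in immune, senescence and nutrient responses. bZIP factors bind DNA through a basic region as dimers joined by a leucine zipper, and the choice of partner changes their targets. They are known for roles in energy starvation, protein folding stress in the endoplasmic reticulum (ER), zinc supply and abscisic acid responses. NAC factors share an N-terminal DNA-binding domain and act in development, senescence and stress, some of them after release from membranes.

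Of the 24 genes, 6 differed among the 7 tubes by limma's moderated F test at a Benjamini-Hochberg adjusted p below 0.05, a share of 25% beside 7.91% of all named probe sets. At an unadjusted p below 0.05 it was 13 members, beside 22.1% of all named probe sets. The 6 were WRKY6 (adjusted p = 0.000126), WRKY29 (0.0011), BZIP61 (0.00198), BZIP53 (0.0053), BZIP60 (0.00949) and bZIP58 (0.0388). Of the 24 members, 17 had means above the median of named probe sets. The means of these 6 genes lay above 76.9% (BZIP60) to 99.0% (WRKY6) of named probe sets. Shares beside all named probe sets, here and below, are not matched for brightness. With bZIP48, 7 members passed limma in at least 1 of the 8 comparisons between tubes planned here, and 17 passed in none. The share of all named probe sets called in at least 1 of the 8 is not given here. The median range of the 7 tube means was 0.44 over the members and 0.33 over all named probe sets, beside a median residual SD within tubes of 0.17 in both.

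**Figure D1:**
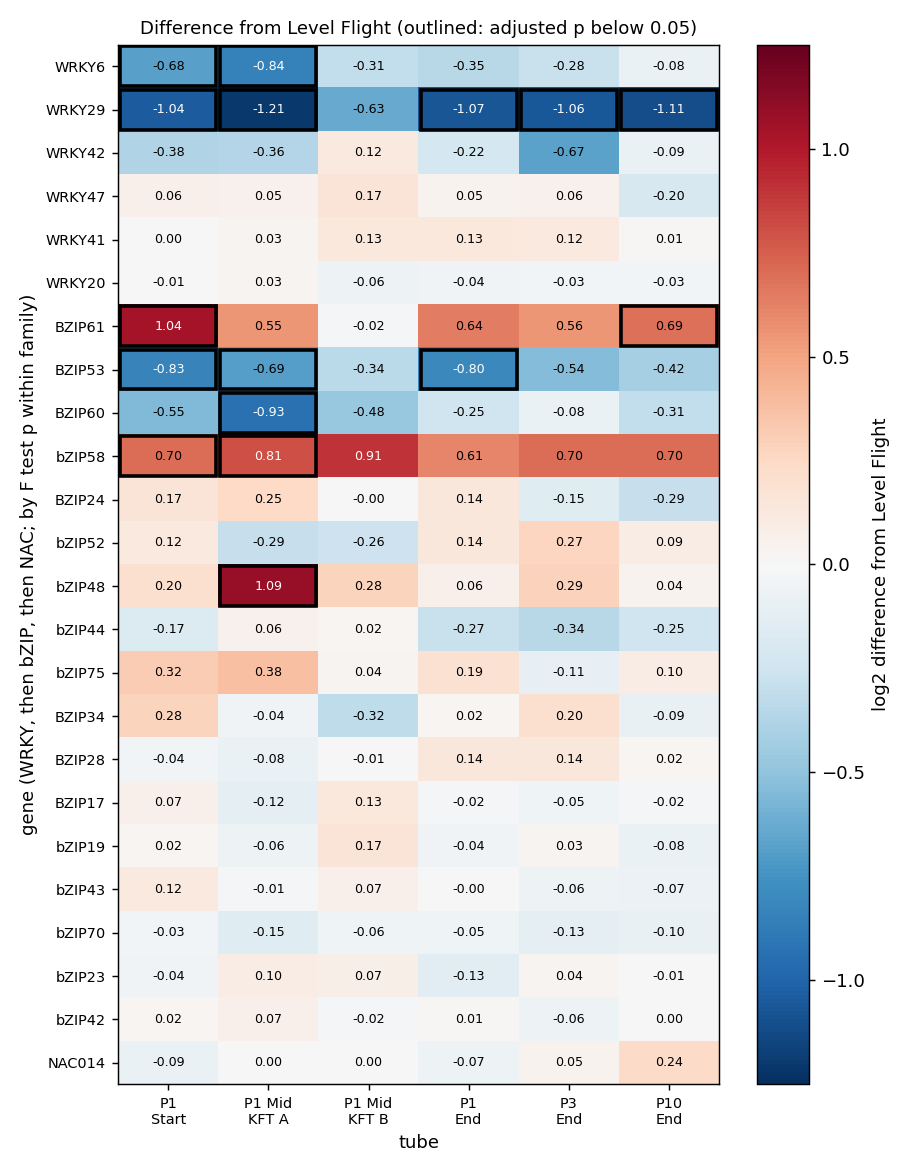
Log2 difference of each of the 24 genes (rows, by family) from Level Flight in the 6 other tubes (columns); the number in each cell is the difference of the means of 3 arrays, blue is lower and red higher, and black outlines mark a limma adjusted p below 0.05 (P1, P3 and P10 stand for parabolas 1, 3 and 10). WRKY29 is outlined in 5 of 6 columns, and no cell of the KFT B column is outlined.

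WRKY6 (AT1G62300), a factor of leaf senescence, pathogen responses and phosphate supply, was lowest at Parabola 1 Start and in KFT A, but not in KFT B of the same midpoint stage, and lay near its Level Flight value at Parabola 10 End. Its log2 values were 9.57, 9.52 and 9.65 in Level Flight, 8.98, 8.81 and 8.92 at Parabola 1 Start, 8.71, 8.59 and 8.92 in KFT A, and 9.19, 9.41 and 9.20 in KFT B. At the ends of parabolas 1, 3 and 10 they were 9.27, 9.29 and 9.14, then 9.29, 9.40 and 9.23, then 9.53, 9.50 and 9.45. All 6 arrays of Parabola 1 Start and KFT A lay below the other 15, and the Parabola 10 End and Level Flight arrays overlapped.

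WRKY6 fell by 0.68 on the log2 scale at Parabola 1 Start (SE 0.10, 1.60-fold, limma adjusted p = 0.000465) and by 0.84 in KFT A (SE 0.10, 1.79-fold, adjusted p = 4.69e-05), each against Level Flight. The differences were -0.31 in KFT B (adjusted p = 0.376), -0.35 at Parabola 1 End (0.11), -0.28 at Parabola 3 End (0.29) and -0.08 at Parabola 10 End (0.787). Parabola 10 End was also compared with the early tubes, in 2 contrasts chosen after seeing the data. WRKY6 was higher by 0.59 at Parabola 10 End than at Parabola 1 Start (SE 0.10, limma adjusted p = 0.00242), and by 0.76 than in KFT A (SE 0.10, adjusted p = 0.000187). Its residual SD within tubes was 0.10.

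WRKY29 (AT4G23550), a factor activated downstream of the flagellin receptor kinase pathway in leaf cells, was highest in Level Flight. Its log2 values were 7.65, 8.0 and 8.14 in Level Flight, 6.76, 7.14 and 6.79 at Parabola 1 Start, 6.63, 6.75 and 6.79 in KFT A, and 7.59, 7.23 and 7.09 in KFT B. They were 6.90, 6.94 and 6.73 at Parabola 1 End, 6.86, 7.12 and 6.62 at Parabola 3 End, and 6.76, 7.24 and 6.47 at Parabola 10 End. The 3 Level Flight arrays lay above all 18 others, with KFT B the next highest tube by its mean.

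Against Level Flight, WRKY29 fell by 1.04 at Parabola 1 Start, 1.21 in KFT A, 1.07 at Parabola 1 End, 1.06 at Parabola 3 End and 1.11 at Parabola 10 End (SE 0.18 each, 2.05-fold to 2.31-fold, limma adjusted p from 0.000263 to 0.00795). The difference in KFT B was -0.63 (adjusted p = 0.296). These comparisons share the 3 Level Flight arrays, so they are not separate observations of a fall. Parabola 10 End minus Parabola 1 End was -0.04 (95% interval -0.41 to 0.34, limma adjusted p = 0.955). Without Level Flight replicate 3 or Parabola 3 End replicate 3, the Parabola 3 End call was lost (limma adjusted p = 0.0514 and 0.0585).

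The other WRKY genes did not pass in any comparison. WRKY42 (AT4G04450), which acts with WRKY6 in phosphate transport, had its lowest tube mean at Parabola 3 End. Its arrays there were 2.12, 2.50 and 2.48, against 3.04, 2.90 and 3.19 in Level Flight, a difference of -0.67 (limma adjusted p = 0.191). Single arrays of other tubes were also low, such as 2.16 at Parabola 1 End and 2.32 in KFT A. Its residual SD within tubes, 0.30, was wide, and its mean of 2.81 lay below the median of named probe sets (2.99). No probe set, dim or bright, was tested against background here. WRKY47 (AT4G01720), of the same subgroup as WRKY6, differed from Level Flight by -0.20 to 0.17. WRKY41 (AT4G11070), known in seed dormancy, differed by 0.00 to 0.13, also at a low signal (mean 2.17). WRKY20 (AT4G26640), which holds a pair of WRKY domains, stayed between 6.51 and 6.85 on all arrays. Its 6 differences from Level Flight had 95% intervals within -0.28 and 0.25.

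**Figure D2:**
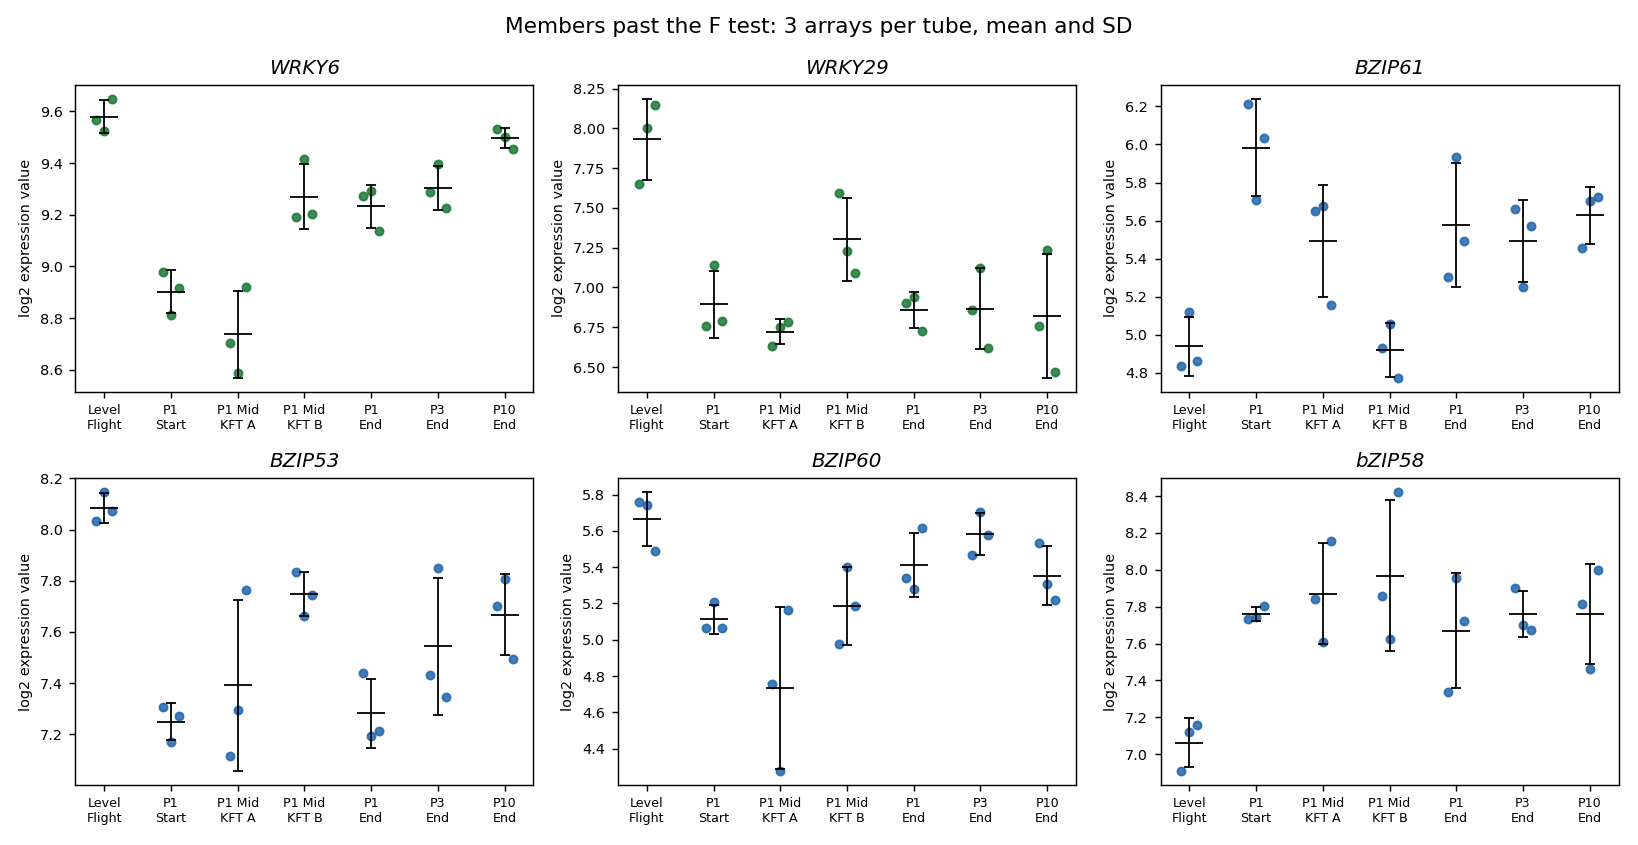
Log2 expression values by tube for the 6 genes past the F test; dots are single arrays, horizontal bars the means of 3 arrays and whiskers the SD, with tubes in flight order and each axis covering its own gene's range. WRKY29, BZIP53 (both above) and bZIP58 (below) have Level Flight arrays apart from the other 18.

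Group S of the bZIP family holds short factors, several of which are repressed by sucrose through an upstream reading frame of their transcript. BZIP53 (AT3G62420), of this group, pairs with group C bZIPs and activates amino acid catabolism and seed storage genes. Its log2 values were 8.03, 8.15 and 8.07 in Level Flight, 7.31, 7.17 and 7.27 at Parabola 1 Start, 7.12, 7.29 and 7.76 in KFT A, and 7.83, 7.66 and 7.75 in KFT B. At the ends of parabolas 1, 3 and 10 they were 7.44, 7.19 and 7.21, then 7.43, 7.85 and 7.35, then 7.70, 7.81 and 7.50. The Level Flight arrays lay above all 18 others.

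BZIP53 fell by 0.83 at Parabola 1 Start (SE 0.15, 1.78-fold, limma adjusted p = 0.00166), by 0.69 in KFT A (adjusted p = 0.00605) and by 0.80 at Parabola 1 End (adjusted p = 0.00816), against Level Flight. It did not pass in KFT B (-0.34, adjusted p = 0.551), at Parabola 3 End (-0.54, 0.11) or at Parabola 10 End (-0.42, 0.167). In KFT A, replicate 3 at 7.76 stood above the other arrays of that tube, and with only the 6 arrays compared the KFT A call was lost (adjusted p = 0.0587).

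bZIP58 (AT1G13600), also of group S, was the opposite case, with Level Flight lowest. Its log2 values were 6.91, 7.12 and 7.16 in Level Flight, 7.73, 7.74 and 7.81 at Parabola 1 Start, 7.84, 7.61 and 8.16 in KFT A, and 7.86, 7.62 and 8.42 in KFT B. They were 7.33, 7.95 and 7.72 at Parabola 1 End, 7.90, 7.70 and 7.67 at Parabola 3 End, and 7.82, 7.46 and 8.0 at Parabola 10 End. All 18 arrays from the parabolas lay above the 3 Level Flight arrays.

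bZIP58 rose by 0.70 at Parabola 1 Start (SE 0.19, 1.62-fold, limma adjusted p = 0.0348) and by 0.81 in KFT A (1.75-fold, adjusted p = 0.0114). Its largest difference was in KFT B, 0.91, where the adjusted p was 0.136 because the adjustment runs within each comparison. KFT A minus KFT B was -0.10 (95% interval -0.49 to 0.29, adjusted p = 0.909). The values at the ends of parabolas 1, 3 and 10 were 0.61, 0.70 and 0.70 (adjusted p = 0.125, 0.103 and 0.0649). The Parabola 1 Start call was lost without any single array of its 6 (adjusted p from 0.0699 to 0.141), with all probe sets (0.0668) and with the tube as a random block (0.257). The KFT A call was lost without Level Flight replicate 1 or KFT A replicate 3 (0.0579 and 0.0595).

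bZIP48 (AT2G04038), a further group S member, was high in KFT A alone. It had 5.55, 5.93 and 5.75 there, against 4.61, 4.37 and 4.98 in Level Flight, and the other tubes ranged between 4.05 and 5.32. bZIP48 rose by 1.09 in KFT A (SE 0.26, 2.13-fold, limma adjusted p = 0.0146). The difference between KFT A and KFT B, 0.81, did not pass (adjusted p = 0.146), and the F test missed the threshold (adjusted p = 0.0701). The call was lost without Level Flight replicate 1 or 2 or KFT A replicate 2 (adjusted p = 0.0511, 0.0835 and 0.0744).

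bZIP44 (AT1G75390), a group S factor known in seed germination, differed from Level Flight by -0.34 to 0.06. bZIP42 (AT3G30530) and bZIP43 (AT5G38800) gave -0.06 to 0.07 and -0.07 to 0.12. bZIP70 (AT5G60830) gave -0.15 to -0.03 and bZIP75 (AT5G08141) -0.11 to 0.38. None of these 5 passed, and all but bZIP44 had means below the median of named probe sets. None of them was tested against background.

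Group E of the family holds BZIP61 and BZIP34, close relatives that pair with other bZIPs. BZIP61 (AT3G58120) was lowest in Level Flight and KFT B. Its log2 values were 4.84, 5.12 and 4.86 in Level Flight, 6.21, 5.71 and 6.04 at Parabola 1 Start, 5.65, 5.68 and 5.15 in KFT A, and 4.93, 5.06 and 4.77 in KFT B. They were 5.30, 5.93 and 5.49 at Parabola 1 End, 5.66, 5.25 and 5.57 at Parabola 3 End, and 5.46, 5.70 and 5.72 at Parabola 10 End. The arrays of Level Flight and KFT B overlapped each other and lay below the other 15.

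BZIP61 rose by 1.04 at Parabola 1 Start (SE 0.17, 2.06-fold, limma adjusted p = 0.000939) and by 0.69 at Parabola 10 End (1.61-fold, adjusted p = 0.0478). The differences were 0.55 in KFT A (adjusted p = 0.067), -0.02 in KFT B (0.993), 0.64 at Parabola 1 End (0.0761) and 0.56 at Parabola 3 End (0.179). The Parabola 10 End call was lost without any 1 of its 6 arrays (adjusted p from 0.0642 to 0.17), with all probe sets (0.0934), with cyclic loess (0.0503) and with the replicate block (0.0597). BZIP34 (AT2G42380), known from pollen wall formation, did not pass: it gave 0.28 at Parabola 1 Start and -0.32 in KFT B (adjusted p = 0.437 and 0.65). bZIP52 (AT1G06850), of group I with the touch-response factor VIP1, had 3.96, 3.73 and 3.70 in KFT A and 3.59, 4.08 and 3.81 in KFT B, against 4.09, 4.09 and 4.07 in Level Flight (limma adjusted p = 0.319 and 0.692).

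The ER stress factors BZIP17, BZIP28 and BZIP60 control genes of protein folding. BZIP17 and BZIP28 are held in the ER membrane and cut free in the Golgi, while the BZIP60 transcript is spliced when unfolded proteins accumulate. Whether the probe set tells the spliced transcript from the unspliced one was not examined here. BZIP60 (AT1G42990) had log2 values of 5.76, 5.74 and 5.49 in Level Flight, 5.07, 5.21 and 5.07 at Parabola 1 Start, 4.76, 4.28 and 5.17 in KFT A, and 4.97, 5.40 and 5.19 in KFT B. At the ends of parabolas 1, 3 and 10 they were 5.34, 5.28 and 5.62, then 5.47, 5.70 and 5.58, then 5.53, 5.31 and 5.22. All arrays of Parabola 1 Start, KFT A and KFT B lay below the 3 Level Flight arrays, while each of the parabola ends overlapped with Level Flight.

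BZIP60 fell by 0.93 in KFT A (SE 0.17, 1.90-fold, limma adjusted p = 0.00147). It gave -0.55 at Parabola 1 Start (adjusted p = 0.0692), -0.48 in KFT B (0.43), -0.25 at Parabola 1 End (0.562), -0.08 at Parabola 3 End (0.915) and -0.31 at Parabola 10 End (0.427). Parabola 10 End minus KFT A was 0.62 (limma adjusted p = 0.031), a contrast chosen after seeing the data, and 0.39 without KFT A replicate 2 (adjusted p = 0.207). BZIP17 (AT2G40950) and BZIP28 (AT3G10800) did not pass: they differed from Level Flight by -0.12 to 0.13 and by -0.08 to 0.14, with 95% intervals within -0.34 and 0.36 in all 6 tubes. BIP1, an ER chaperone gene that these factors activate, differed by 0.01 to 0.28 and did not pass. Its tube means of 2.46 to 2.74 lay below the median of named probe sets, and its near-identical copy BIP2 may bind the same probes.

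Group F holds the zinc-deficiency factors bZIP19 and bZIP23 and the salt-response factor BZIP24. bZIP19 (AT4G35040) differed from Level Flight by -0.08 to 0.17 and bZIP23 (AT2G16770) by -0.13 to 0.10, and neither passed. ZIP9, a zinc transporter gene that they activate, did not pass: its differences from Level Flight were -0.39 to -0.17 (smallest limma adjusted p 0.091). These share the 3 Level Flight arrays, and the tube means of ZIP9, 2.30 to 2.69, lay below the median of named probe sets. BZIP24 (AT3G51960) had 2.04, 2.08 and 2.04 at Parabola 10 End, against 2.37, 2.34 and 2.32 in Level Flight and 2.82, 2.39 and 2.57 in KFT A. It passed only in the added contrast of Parabola 10 End with KFT A (-0.54, limma adjusted p = 0.0149), was dim in all tubes, and lost that call without KFT A replicate 1 (0.0846), without Parabola 10 End replicate 1 (0.0521) or with only the 6 arrays compared (0.0625).

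NAC014 (AT1G33060), the 1 NAC gene that met the rule, had 5.21, 5.28 and 5.37 at Parabola 10 End, against 5.12, 5.06 and 4.96 in Level Flight. Its 3 Parabola 10 End arrays lay above all 18 others, and the difference of 0.24 did not pass limma (adjusted p = 0.4). In the other 5 tubes it differed from Level Flight by -0.09 to 0.05.

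**Figure D3:**
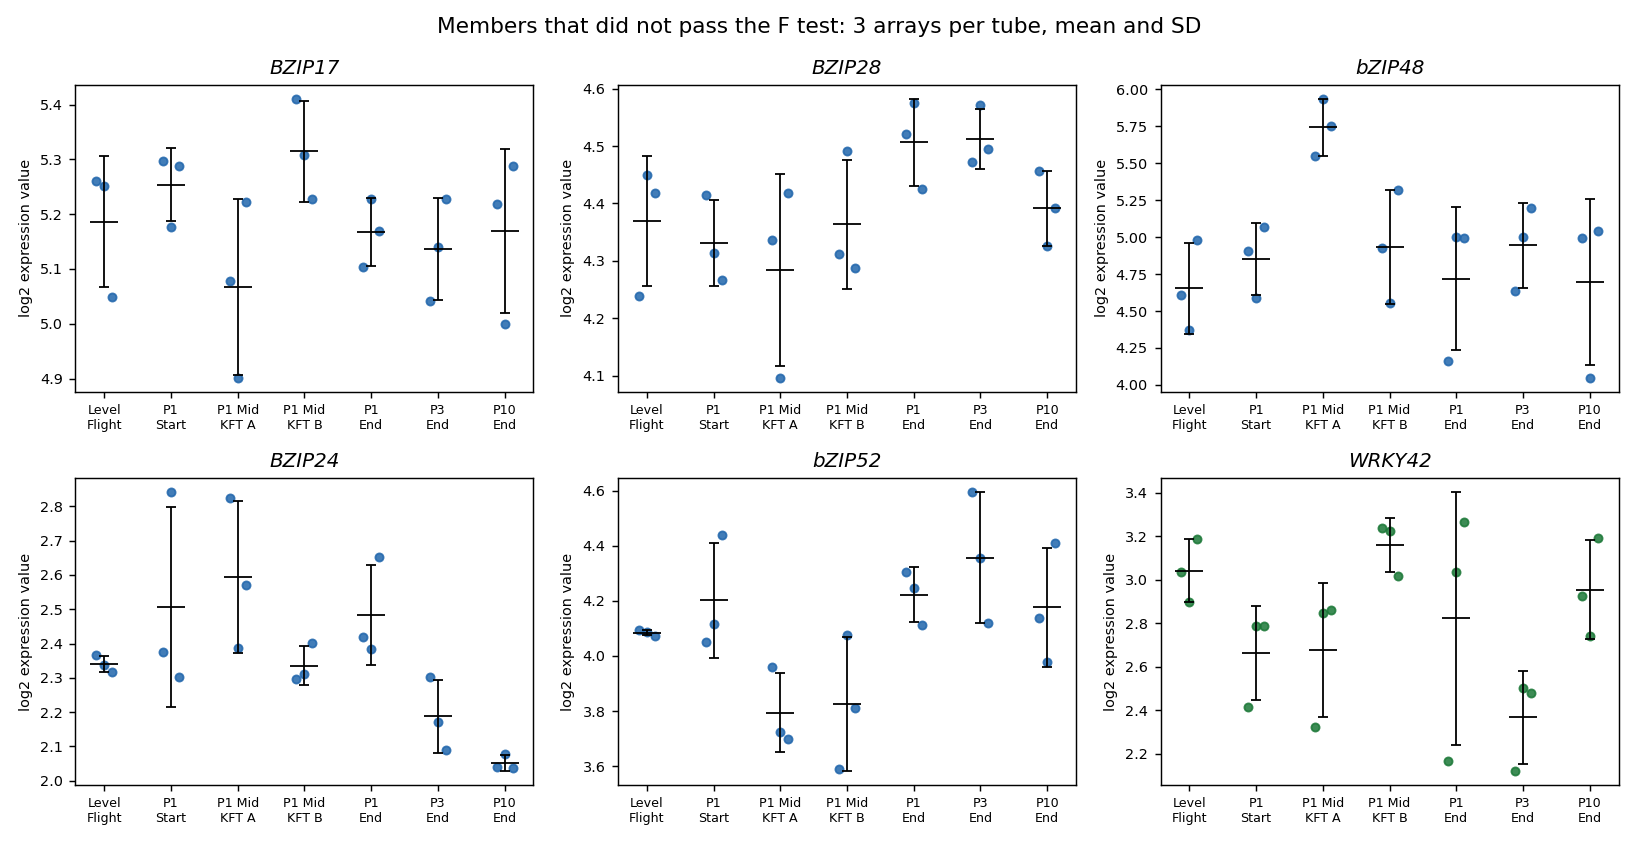
Log2 expression values by tube for 6 genes that did not pass the F test; dots are single arrays, horizontal bars the means of 3 arrays and whiskers the SD, with tubes in flight order and each axis covering its own gene's range. bZIP48 is high in KFT A alone.

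By tube, 5 of the 24 members passed at Parabola 1 Start against Level Flight, 20.8% beside 4.16% of all named probe sets. Of these, 2 were higher (BZIP61, bZIP58), beside 1.41% of all named probe sets, and 3 lower (WRKY6, WRKY29, BZIP53), beside 2.76%. KFT A against Level Flight called 6 members, 25% beside 5.14%, with 2 higher (bZIP48, bZIP58) beside 1.65% and 4 lower (WRKY6, WRKY29, BZIP53, BZIP60) beside 3.48%. KFT B against Level Flight called 0 by limma, beside 0.0458% of all named probe sets, and 5 members had an unadjusted p below 0.05, beside 8.16%.

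Parabola 1 End against Level Flight called 2 members, 8.33% beside 1.14%, both lower (WRKY29, BZIP53), beside 0.864% of all named probe sets. Parabola 3 End called 1, 4.17% beside 0.458%, and it was lower (WRKY29), beside 0.332%. Parabola 10 End called 2, 8.33% beside 1.45%, with BZIP61 higher, beside 0.475%, and WRKY29 lower, beside 0.972%. Median differences of the 24 members from Level Flight lay between -0.05 and 0.01, and those of all named probe sets between -0.00 and 0.03.

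The 3 arrays of a tube did not overlap those of Level Flight for 9 members at Parabola 1 Start, beside 22.3% of all named probe sets, for 12 in KFT A (19.7%) and for 6 in KFT B (12.9%). At the ends of parabolas 1, 3 and 10 this held for 9 (16.4%), 10 (17.3%) and 8 members (21.1%).

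No member passed at Parabola 1 Start or at the parabola ends in a fit that allows for differences between tubes. With the tube as a random block, an alternative to the plain fit, the correlation was 0.184, taken from the midpoint pair. The limma counts at an unadjusted p below 0.05 in that fit were 6 at Parabola 1 Start and 4, 6 and 3 at the ends of parabolas 1, 3 and 10. The shares of all named probe sets in that fit are not given here, so these counts do not set the members apart. Adjusted p for the calls against Level Flight named above ran from 0.0766 (BZIP61, Parabola 1 Start) to 0.531 (BZIP61, Parabola 10 End). Comparisons with KFT A or KFT B were not run in it.

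Members whose 3 arrays in a tube all lay above or all below the other 18 arrays were few. Level Flight had 3 of 24 (WRKY29, BZIP53, bZIP58), beside 1.16% of all named probe sets, KFT A had bZIP48 (1.16%), and Parabola 10 End had NAC014 and BZIP24 (1.42%). No member stood apart so at Parabola 1 Start (0.566%), in KFT B (0.206%), at Parabola 1 End (0.481%) or at Parabola 3 End (0.257%). By its mean, KFT A was the highest or the lowest tube for 14 of 24 members, 58.3%, against 32.7% of all named probe sets. No test was made of these shares.

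KFT A and KFT B held plants fixed at the same stage, and their comparison shows how far these tubes of one stage differed. WRKY6 was the 1 member that passed: KFT A had 8.71, 8.59 and 8.92, against 9.19, 9.41 and 9.20 in KFT B, a difference of -0.53 (SE 0.10, 1.45-fold, limma adjusted p = 0.0124). All 3 KFT A arrays lay below those of KFT B. The share called was 1.4% over all named probe sets, and 1.11% were lower. That call was lost without KFT A replicate 2 (adjusted p = 0.0748), without KFT B replicate 2 (0.0829) and with only the 6 arrays compared (0.201). WRKY29 gave -0.58 (adjusted p = 0.126), BZIP61 0.57 (0.111), bZIP48 0.81 (0.146) and BZIP60 -0.45 (0.225). In all, 9 members had an unadjusted p below 0.05, beside 12.3% of all named probe sets, and 7 had arrays that did not overlap, beside 15.3%.

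**Figure D4:**
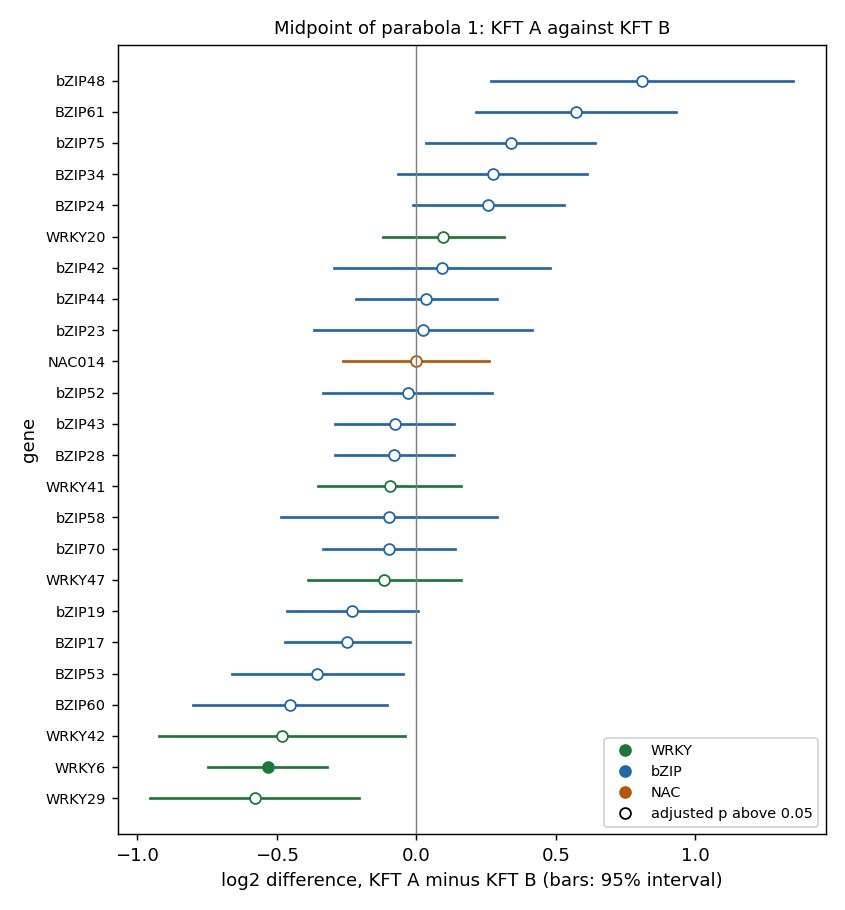
Log2 difference of KFT A minus KFT B for the 24 genes, sorted by size; points are differences of the means of 3 arrays, bars 95% intervals of the limma fit, colours the families and filled points a limma adjusted p below 0.05. WRKY6 at -0.53 is the one filled point, and the intervals of 9 genes exclude 0.

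Parabola 10 End against Parabola 1 End called 0 of 24 members by limma, beside 2.33% of all named probe sets, with 4 at an unadjusted p below 0.05, beside 14.3%, and 4 with arrays that did not overlap, beside 18.4%. BZIP24 (-0.43, adjusted p = 0.0901) and BZIP53 (0.39, 0.207) were nearest to the threshold. The added contrasts called WRKY6 alone at Parabola 10 End against Parabola 1 Start, 4.17% beside 2.65%, and it was higher, beside 1.52%. Against KFT A they called 4 members, 16.7% beside 5.55%. WRKY6 and BZIP60 were higher, beside 2.79% of all named probe sets, and bZIP48 (-1.05, limma adjusted p = 0.0191) and BZIP24 lower, beside 2.76%. The BZIP60 call there was lost under 6 of 13 alternatives, and the bZIP48 call without KFT A replicate 2 or Parabola 10 End replicate 2 and with only the 6 arrays compared (0.0896, 0.149 and 0.0587).

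**Figure D5:**
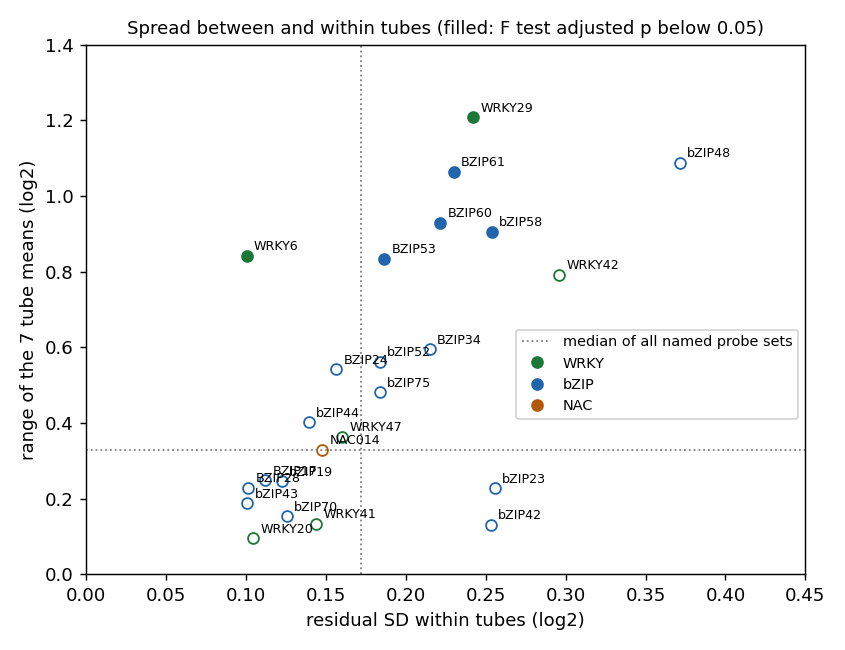
Range of the 7 tube means (vertical, log2) against the residual SD within tubes (horizontal, log2) for the 24 genes; colours are the families, filled points passed the F test, and dotted lines are the medians of all named probe sets. WRKY6 combines a range of 0.84 with an SD of 0.10, while bZIP48 has a range of 1.09 with an SD of 0.37.

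Genes downstream of these factors were hardly covered. GRX480, a glutaredoxin that binds TGA factors of the bZIP family, had tube means of 6.71 in Level Flight, 4.60 at Parabola 1 Start, 4.74 in KFT A, 6.01 in KFT B, and 5.97, 6.17 and 5.68 when parabolas 1, 3 and 10 ended. Against Level Flight it fell by 2.12 at Parabola 1 Start (limma adjusted p = 0.000543) and by 1.97 in KFT A (0.00069). It did not pass in KFT B (-0.71, 0.589) or at the ends of parabolas 1, 3 and 10 (-0.75, -0.55 and -1.04, with 0.316, 0.586 and 0.112). Its arrays spread widely, with 4.36, 4.27 and 5.61 in KFT A and 5.71, 6.88 and 5.43 in KFT B. KFT A minus KFT B was -1.26 and did not pass (limma adjusted p = 0.0566). With BIP1 and ZIP9, GRX480 made up 3 measured genes of 28 on the list of bZIP targets. Of 25 MYB targets 3 were measured (UGT74B1, DFR and BAN), of 16 NAC targets 1 (NDB4) and of 27 WRKY partners and targets 0; none of these 4 genes passed against Level Flight.

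Shoot markers were checked because root and shoot of each seedling were parted only after fixing. Of 17 shoot markers 3 were measured (RCA, LHCB4.1 and LHCB4.2), and their summed linear signal ranged from 35.2 to 46.1 in Level Flight, 46.8 to 52.0 at Parabola 1 Start, 48.6 to 55.3 in KFT A and 43.1 to 62.7 in KFT B. At the ends of parabolas 1, 3 and 10 it ranged from 40.1 to 49.2, 43.0 to 50.4 and 43.4 to 58.0. In this sum, all Level Flight arrays lay below all arrays of Parabola 1 Start and of KFT A, and overlapped with those of the other tubes. None of the 3 markers passed singly, and log values have no 0 to read absence from. The part of these markers in the WRKY and bZIP differences was not tested. Of 24 root markers only EXPA7, an expansin of root hairs, was measured, at tube means of 3.83 to 4.17.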

How the data were processed

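The deposited values are log2 expression values of 38408 probe sets on 21 Affymetrix AraGene 1.0 ST arrays, labelled from 100 ng of total RNA per the labels' protocols. The submitters' processing notes list TAIR10, oligo, limma, RMA and R 4.0.0, with no order or role. The platform annotation named 17481 probe sets, 16722 with 1 gene, of which 16574 matched RefSeq (TAIR10.1) by Entrez identifier. No coordinates or sequences are given.

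limma 3.58.1 (lmFit, eBayes, two-sided) in R 4.3.3 was fitted to all named probe sets and all arrays, with a mean for each of the 7 tubes, which leaves 14 residual degrees of freedom. Tables were read with data.table (1.17.8), and figures used matplotlib 3.10.9 in Python 3.11.15. Benjamini-Hochberg adjustment ran within each comparison. No filter on brightness was applied. Members and lists were chosen with earlier results of these data known. Named by rule were members past the threshold, the 2 nearest misses in a comparison and the 3 brightest of each family, with array values for up to 4 called members of a family by F test p; array values of bZIP48, BZIP24, bZIP52, WRKY42 and NAC014 were chosen after their values were seen.

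Alternatives were a brightness filter, a robust variance trend, all probe sets, the replicate block, cyclic loess, only the arrays compared, the mean over probe sets of a gene, the tube as a random block, and leaving out each array. Tested on simulated data (the Parabola 1 Start comparison with Level Flight, 17481 probe sets), the fit found 41.2% of log2 changes sized 0.5, 94.8% sized 1 and 99.2% sized 1.5. The simulation held scatter within tubes and no differences between tubes, so these rates do not cover the finding of a stage difference across tubes. Replicate numbers were checked for pairing.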

Additional observations from a re-analysis of the deposited data

Results flagged for a closer look

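WRKY6 differed between the midpoint tubes, which different crew members operated at one stage: KFT A minus KFT B was -0.53 on the log2 scale (limma adjusted p = 0.0124), and all 3 arrays of KFT A lay below all 3 of KFT B. Its change against Level Flight thus differed between tubes of the same stage. Over the 13 alternatives for this value it ranged from -0.62 to -0.46, with adjusted p from 0.00171 to 0.201.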

How the results depend on the processing

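No called member changed its direction under any alternative run. With the tube as a random block, the member counts against Level Flight were 0 at Parabola 1 Start and 0 at each of the ends of parabolas 1, 3 and 10, and 0 at Parabola 10 End against Parabola 1 Start; the correlation rests on 1 pair of tubes. With only the 6 arrays compared, the counts were 2 at Parabola 3 End against Level Flight, 0 for KFT A against KFT B (5 at an unadjusted p below 0.05) and 1 for Parabola 10 End against KFT A. The Parabola 10 End count against Level Flight was 1 with all probe sets, 1 with cyclic loess and 1 with the replicate block. The replicate block also gave 8 members in the F test, against 6 without it, and changed no count of members beyond these 2 comparisons. Correlations of same-numbered arrays in different tubes ran from -0.11 to 0.15, and those of differently numbered arrays from -0.18 to 0.17. The check gave no sign of pairing but cannot exclude it, and the main fit used the numbers only as names of the arrays. Leaving out 1 array at a time gave 4 members in each case at Parabola 1 Start, 4 to 6 in KFT A, 0 to 1 in KFT B, 2 to 3 at Parabola 1 End, 0 to 2 at Parabola 3 End and 1 in each case at Parabola 10 End against Level Flight. Over all named probe sets these fits called 428 to 491, 548 to 944 and 0 to 17 in the first 3 of these tubes. At the ends of parabolas 1, 3 and 10 they called 69 to 172, 16 to 68 and 83 to 128. Leaving out arrays gave 5 to 8 members in the F test, 0 to 4 for KFT A against KFT B, 0 in each case for Parabola 10 End against Parabola 1 End, 1 to 2 against Parabola 1 Start and 2 to 4 against KFT A. Over all named probe sets the calls ran from 1020 to 1409 in the F test and from 33 to 391 for KFT A against KFT B. For the 3 comparisons of Parabola 10 End they ran from 157 to 397, 188 to 331 and 506 to 837. The cause of these moves was not tested. The mean over probe sets of a gene changed nothing, since each member had 1. The brightness filter left 17 members and called 8 in the F test. The share over all probe sets kept by that filter is not given here, so this count does not set the members against the rest. Such shares are also not given for the tube block, the 6-array fits, all probe sets, cyclic loess or the replicate block. Dim probe sets, 7 of 24 below the median, limit what can be read for those genes.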
